A study of Mus musculus with 2 samples.

Results

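The 9 genes of the HoxC cluster, Hoxc4, Hoxc5, Hoxc6, Hoxc8, Hoxc9, Hoxc10, Hoxc11, Hoxc12 and Hoxc13, were followed in distal forelimbs of E12.5 mouse embryos. They were taken from the deposited transcript table by their symbols, which gave 13 of its 64053 transcripts and 9 of its 23157 genes. RNA was sequenced from a wild-type pool and from a pool of embryos homozygous for HoxD Inv(TpSB1-Itga6). Both pools held 3 pairs of forelimbs, carry the strain label C57Bl6CBAF1 and gave 1 library each. The wild-type sample is titled wtFL, without the D for distal of invDFL, but its column in the deposited table is named wtDFL. The allele turns around 2.4 Mb of chromosome 2 next to the HoxD cluster, which moves islands I and II, remote enhancers of Hoxd genes in the digits, away from the cluster while other such enhancers keep their place, and the comparison asks which transcript levels differ with it. The HoxC cluster lies on chromosome 15 and is intact in both pools. The libraries held 9280660 and 9466154 reads. With a single pool each, no difference below has a replicate check and no gene was tested between genotypes.

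Hox genes encode homeodomain transcription factors that give cells their position along the body and the limbs. In mammals they stand in 4 clusters on different chromosomes, and the order of the genes within a cluster follows the order of their expression domains, with low numbers anterior and high numbers posterior or distal. Genes of the same number in different clusters are paralogues. The posterior HoxA and HoxD genes pattern the limb skeleton. HoxC genes are best known from the trunk, the spinal motor neurons, the hindlimb, and the skin with its hair and nails.

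In GENCODE M21 the cluster runs from Hoxc13 to Hoxc4 on the plus strand, at chr15:102921103-103036852 of GRCm38, over 116 kb. The reads were mapped to another build, NCBIM37, so these positions were found through the transcript identifiers and no coordinate was converted. The homeobox is the part in which the members are most alike. Its recognition helix, which touches the DNA, is shown here as 17 codons of 8 of the genes. Capitals mark the bases that are unlike Hoxc13, and the sequences run 5′ to 3′ and come from the GENCODE M21 transcripts.
Hoxc13: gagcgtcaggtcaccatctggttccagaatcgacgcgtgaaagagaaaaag
Hoxc12: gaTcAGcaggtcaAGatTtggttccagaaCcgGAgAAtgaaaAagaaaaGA
Hoxc11: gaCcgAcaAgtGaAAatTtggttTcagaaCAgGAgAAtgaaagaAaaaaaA
Hoxc10: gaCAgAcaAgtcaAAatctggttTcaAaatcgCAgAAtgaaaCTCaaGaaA
Hoxc9: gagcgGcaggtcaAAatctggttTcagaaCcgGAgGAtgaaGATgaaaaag
Hoxc8: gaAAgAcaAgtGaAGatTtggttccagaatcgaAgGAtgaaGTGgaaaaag
Hoxc6: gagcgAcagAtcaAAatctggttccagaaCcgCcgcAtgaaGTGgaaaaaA
Hoxc4: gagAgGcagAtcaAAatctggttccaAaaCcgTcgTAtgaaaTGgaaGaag
Of these 51 bases, 11 to 17 were unlike Hoxc13 in the other genes shown. Hoxc4 and Hoxc6 were the closest of these pairs, with 8 unlike bases, and Hoxc4 and Hoxc11 the most unlike, with 18. Over the whole transcripts, no listed transcript of a member shared a stretch of 100 bases, the length of a read, with a transcript listed under another Hox gene. Between a Hoxc transcript and one listed under another Hox symbol, the longest shared run was 50 bases, a repeat of c and t in Hoxc9 and Hoxb9. The next longest was 31 bases. Pairs of Hox genes without a Hoxc member were not compared.

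Each of the 9 genes was detected in both libraries and passed the filter of a mean of 10 normalized reads, that is, reads divided by the library's size factor. For Hoxc13, a gene of hair, nail and limb ectoderm, the wild-type library gave 184 normalized reads and the inversion library 189.6, from 182 and 192 reads. Hoxc12, its neighbour, which is known from the hair follicle, had 70.9 and 55.3 normalized reads (70 and 56 reads). Both libraries were thus nearly level for Hoxc13, and for Hoxc12 the inversion library was the lower one. Hoxc11, a gene of the hindlimb and the caudal trunk, had 69.9 and 70.1 normalized reads (69 and 71 reads). Hoxc10, which is used in lumbar motor neurons and the hindlimb, had 77.0 and 55.3 (76 and 56 reads). Hoxc11 was as level as Hoxc13, and Hoxc10 was lower in the inversion library.

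The remaining genes had few reads. Hoxc9, which sets the thoracic identity of motor neurons and acts in the trunk between the limbs, was counted at 30.4 normalized reads in wild type, against 18.8 in the inversion (30 and 19 reads). Hoxc8, a gene of brachial and thoracic segments, had 9.11 and 11.9 (9 and 12 reads). Hoxc6, which is expressed at forelimb level in motor neurons and mesoderm, had 33.4 and 40.5 (33 and 41 reads). Of these, Hoxc9 was lower in the inversion library, and Hoxc8 and Hoxc6 were higher. Hoxc5, a cervical gene that acts with Hoxa5 in phrenic motor neurons, had 9.11 and 13.8 normalized reads (9 and 14 reads). Hoxc4, the most anterior member, had 22.3 and 23.7 (22 and 24 reads). Both values were thus higher in the inversion library, by 5 and 2 reads.

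Levels of different genes were compared per kilobase of the longest protein-coding transcript. In wild type, Hoxc13 had 74.9 normalized reads per kb and Hoxc12 had 68.7, followed by Hoxc10 with 40.3, Hoxc11 with 34.6 and Hoxc6 with 21.1. Hoxc9 had 12.8 normalized reads per kb, Hoxc4 10.5, Hoxc8 4.88 and Hoxc5 3.12. The levels were therefore higher at the posterior than at the anterior end, without an even decrease, as Hoxc10, Hoxc6 and Hoxc4 each stood above the next gene on their posterior side. The order in the inversion library was the same except that Hoxc11 (34.7 per kb) stood above Hoxc10 (29.0), and Hoxc4 (11.2) above Hoxc9 (7.90). The rank of Hoxc4 is uncertain, because its transcripts had identical reads that may have been counted in both. With 1 transcript alone it was at 5.59 per kb in the inversion, below Hoxc9 and Hoxc8. Most neighbours in this order could not be told apart by their exact 95% Poisson intervals, which cover counting error only. In each library 7 of 8 neighbouring pairs overlapped. The exception in wild type was Hoxc12 over Hoxc10, whose intervals ended at 53.6 and 50.5 per kb. In the inversion library it was Hoxc6 over Hoxc4, with ends at 18.4 and 16.6 per kb. Even Hoxc13 was no more than a middling gene of these libraries, as 48.8% of the 20382 genes with a length and reads in wild type had a lower level per kb. This share was 13.7% for Hoxc5, the lowest member.

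**Figure D1:**
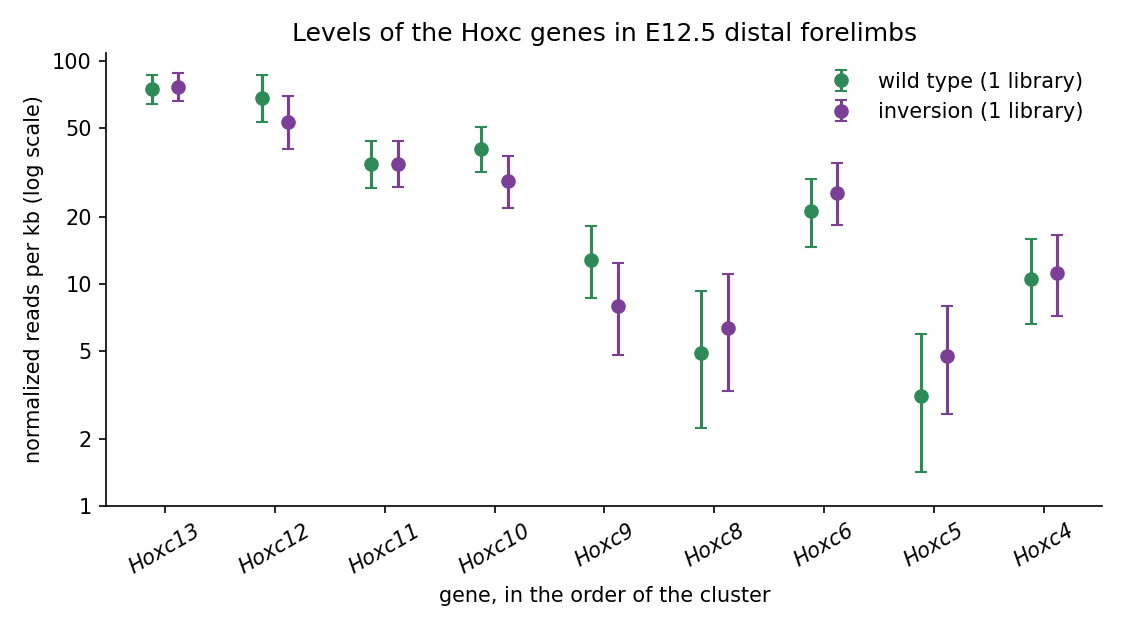
Levels of the 9 Hoxc genes in normalized reads per kb (log scale), in the order of the cluster from Hoxc13 to Hoxc4. Points are the single wild-type library and the single inversion library, and bars are exact 95% Poisson intervals of counting error. Hoxc13 lies at 74.9 and 77.0 and Hoxc5 at 3.12 and 4.73, and the intervals of the libraries overlap for each gene.

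Reads of the cluster came mostly from its posterior end. Hoxc10 to Hoxc13 held 79.4% of the 500 Hoxc reads in wild type (exact Clopper-Pearson 95% interval 75.6 to 82.9) and 77.3% of the 485 reads in the inversion (73.3 to 81.0). Hoxc13 alone held 36.4% (32.2 to 40.8) and 39.6% (35.2 to 44.1). Hoxc5 and Hoxc8, at the other extreme, each held 1.80% in wild type, and 2.89% and 2.47% in the inversion. The intervals of both libraries overlapped for each of these shares. As whole distal forelimbs were sequenced, fewer cells of a type and less RNA per cell cannot be told apart in any of these values.

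Between the libraries, 6 Hoxc genes were higher in the inversion and 3 lower, on the scale of log2 of the normalized reads plus 1. The interval given with each log2 ratio is the exact 95% Clopper-Pearson interval of the inversion library's share of the gene's reads, turned into a ratio. It covers counting error only and compares these libraries, not the genotypes. The log2 ratio of Hoxc13 was 0.04 (-0.26 to 0.34), and that of Hoxc11 was 0.01 (-0.49 to 0.50). Hoxc12 was at -0.35 (-0.89 to 0.17), and Hoxc10 at -0.47 with an interval from just past 2-fold lower to 0.04. The lowest ratio of the cluster was that of Hoxc9, -0.67 (-1.61 to 0.18). The 3 lower genes are thus Hoxc9, Hoxc10 and Hoxc12, which do not form an unbroken run, since Hoxc11 lies between Hoxc10 and Hoxc12.

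On the anterior side, Hoxc8 had a log2 ratio of 0.35 (-0.99 to 1.81), Hoxc6 one of 0.27 (-0.42 to 0.98) and Hoxc5 one of 0.55 (-0.71 to 1.99). Hoxc4 was at 0.09 (-0.81 to 0.99). All 4 ratios were above 0, yet the intervals for Hoxc5 and Hoxc8 rest on no more than 14 reads in a library. Each of the 9 intervals includes 0, so that no difference was detectable at this depth. For Hoxc4, Hoxc6, Hoxc11, Hoxc12 and Hoxc13 the interval also stayed within 2-fold on both sides. For Hoxc4, however, it passes 2-fold on both sides with the reads of 1 of its transcripts alone. For Hoxc6 it passes 2-fold higher, with an end at 1.09, over protein-coding transcripts only. The interval over all transcripts reached 2-fold higher for Hoxc5 and Hoxc8, and 2-fold lower for Hoxc9 and Hoxc10.

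**Figure D2:**
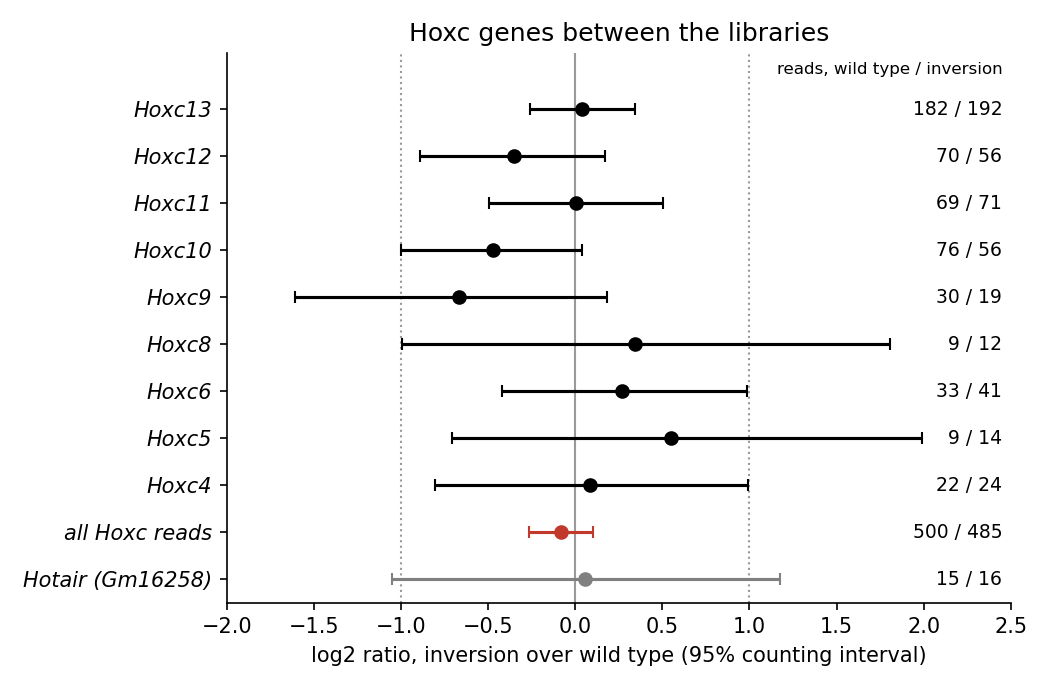
Log2 ratio of inversion over wild type for each Hoxc gene, for all Hoxc reads together (red) and for Hotair (grey), with exact 95% counting intervals and the reads of both libraries at the right. Dotted lines stand at 2-fold. Each interval crosses 0, and that of all Hoxc reads, -0.26 to 0.10, is the narrowest.

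None of the 9 genes was past 2-fold in either direction. Of the 16756 genes passing the filter, 3.99% were 2-fold or more higher with the inversion, and 0.483% were lower by as much. Among the 6535 genes whose mean lay in the range of the Hoxc genes, from 10.5 to 187 normalized reads, these shares were 8.72% and 1.04%. A counting interval that excluded 0 was found for 29.7% of all genes passing the filter and for 20.5% of those in the Hoxc range, but for 0 of the 9 Hoxc genes. In the exact two-sided binomial test on the reads, 13.4% of all genes were called at a Benjamini-Hochberg adjusted p of 0.05. That test called 0 Hoxc genes, and 0 had an unadjusted p under 0.05. Applied to 9 genes, each of these shares comes to fewer than 3 genes. The median log2 ratio of the Hoxc genes was 0.04, beside -0.02 for all genes passing the filter and 0.04 for the genes in the same range.

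**Figure D3:**
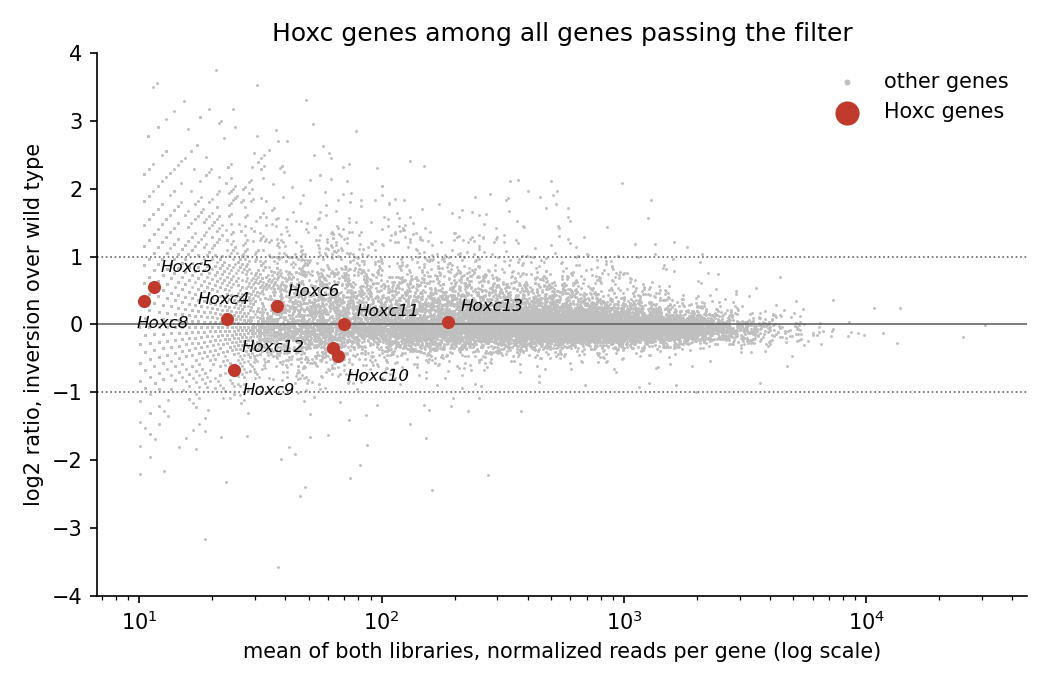
Log2 ratio of inversion over wild type against the mean of both libraries in normalized reads (log scale) for all genes passing the filter (grey) and the 9 Hoxc genes (red). Dotted lines stand at 2-fold, and 3 genes lie beyond the axis. The Hoxc genes sit within the cloud, between -0.67 for Hoxc9 and 0.55 for Hoxc5.

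Summing reads narrowed the intervals. All Hoxc genes together came to 506 normalized reads in wild type, against 479 with the inversion, a log2 ratio of -0.08 (-0.26 to 0.10), which as a ratio is 0.946 (0.833 to 1.07). The genes Hoxc4 to Hoxc8 together had 73 and 91 reads and a log2 ratio of 0.28 (-0.18 to 0.75). Hoxc9 to Hoxc13 had 427 and 394 reads and a log2 ratio of -0.15 (-0.35 to 0.05). These parts of the cluster thus had ratios on either side of 0, with intervals that overlap each other and include 0. With the cut between Hoxc9 and Hoxc10, Hoxc4 to Hoxc9 had a log2 ratio of 0.06 (-0.34 to 0.46). Hoxc10 to Hoxc13 then had one of -0.12 (-0.33 to 0.09). Without Hoxc13, the most abundant member, the other 8 genes had a log2 ratio of -0.15 (-0.39 to 0.08).

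Several members have more than 1 transcript, and their reads were assigned to single transcripts in the deposited table. Hoxc6 had a protein-coding transcript (ENSMUST00000001711) with 22 and 26 reads, which made up 66.7% of its wild-type reads and 63.4% of those from the inversion. Of its processed transcripts, ENSMUST00000173210, which begins upstream, had 8 and 7 reads. The other, ENSMUST00000173421, had 3 in wild type and 8 in the inversion, with an interval of the log2 ratio from -0.68 to 3.93. The higher value of Hoxc6 in the inversion was therefore split between the coding transcript and this short one. Hoxc9 was represented by ENSMUST00000001706, with 27 and 17 reads, and a shorter coding transcript, ENSMUST00000173306, with 3 and 2. The log2 ratios of these transcripts were -0.67 and -0.44.

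Hoxc4 was listed with a transcript of 4 exons (ENSMUST00000165375) and one of 2 exons (ENSMUST00000100164). Each had exactly 11 wild-type reads and 12 from the inversion. They share 1340 stretches of 100 bases, which is 66.3% of the longer and 71.1% of the shorter transcript. Whether a read that fits both was split between them or counted in both is not given in the sources used here. If every read was counted in both, Hoxc4 rests on 11 and 12 reads, and the interval widens to -1.22 to 1.41. Hoxc5, Hoxc8, Hoxc10, Hoxc11, Hoxc12 and Hoxc13 were each listed with 1 transcript.

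Other RNAs of the cluster also had few reads. Hotair, a long noncoding RNA listed in the table as Gm16258, is made from the minus strand between Hoxc12 and Hoxc11, at chr15:102944062-102947730, and overlaps neither. Its level was 15.2 normalized reads in wild type, against 15.8 with the inversion, a log2 ratio of 0.05 (-1.05 to 1.18). A spliced RNA listed in the table as RP24-459N19.4, which GENCODE M21 counts as a noncoding transcript of Hoxc5, joins an exon within Hoxc10, at chr15:102967443-102967608, to an exon within Hoxc5, at chr15:103015228-103015676. Its intron of 47.6 kb spans Hoxc9, Hoxc8 and Hoxc6. The junction is printed with 30 bases on either side, as only reads across it or near it belong to this RNA alone, and capitals mark the exon within Hoxc5.
RP24-459N19.4: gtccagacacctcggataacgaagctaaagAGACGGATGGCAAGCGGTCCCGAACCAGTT
In wild type 2 reads were assigned to this RNA, against 7 with the inversion, with an interval of the log2 ratio from -0.62 to 5.07, so that no difference was detectable. Of its 100-base stretches, 81.4% also occur in Hoxc10 or Hoxc5. Conversely, 3.81% of the stretches of Hoxc10 and 12.4% of those of Hoxc5 occur in it, so a few reads of these genes are uncertain. The microRNA genes of the cluster were not analysed here.

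Outside the cluster, 0 measured genes with a position in GENCODE M21 lay within 100 kb of either end. The nearest ones, chosen after the values were seen, were Calcoco1 at 199 kb from Hoxc13 and Smug1 at 116 kb from Hoxc4. Their log2 ratios were 0.03 (-0.09 to 0.15) and 0.06 (-0.15 to 0.28). Both had more reads than any Hoxc gene, with 1062 and 362 in wild type.

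Hoxc transcripts were a minor part of the Hox transcripts of this tissue. In wild type, 4.66% of the 10730 reads of all Hox genes came from the HoxC cluster (4.27 to 5.08), against 35.8% from HoxA, 0.923% from HoxB and 58.6% from HoxD. In the inversion, the HoxC share was 4.35% of 11139 reads (3.98 to 4.75), against 48.6% from HoxA, 1.51% from HoxB and 45.5% from HoxD. Per kilobase, the HoxC share was 5.16% and 4.78%. The share of HoxA was thus the larger one in the inversion and that of HoxD in wild type, whereas the intervals of the HoxC share overlapped. All 11 measured HoxA genes were higher in the inversion, with a median log2 ratio of 0.61, and 9 of their intervals lay above 0. Of the 8 HoxD genes that passed the filter, 4 were higher and 4 lower, with 4 intervals above 0 and 3 below. For HoxC, 0 of 9 intervals excluded 0. Over all 16756 genes passing the filter, 7810 were higher, and 2802 had an interval above 0 and 2172 one below. Some Hox genes with reads in the range of the Hoxc genes had intervals above 0, among them Hoxb9 with 36 and 111 reads, Hoxd4 with 16 and 70, and Hoxa2 with 44 and 68.

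At the posterior end the Hoxc genes were well below their paralogues. Hoxc13 had 74.9 normalized reads per kb in wild type, compared with 458 for Hoxa13 and 923 for Hoxd13, the pair that patterns the digits. Hoxc12 had 68.7, compared with 646 for Hoxd12. Hoxc10 had 40.3, compared with 450.0 for Hoxa10 and 432 for Hoxd10. The same held for Hoxc11, at 34.6 per kb against 196 for Hoxa11 and 1099 for Hoxd11. Hoxc9, at 12.8 per kb in wild type, was near Hoxb9 (14.2) and below Hoxa9 (188) and Hoxd9 (121). With each transcript divided by its own length, Hoxd11 was at 480.5 and Hoxa9 at 428 per kb. Among the anterior genes this difference was not general. Hoxc5, at 3.12 per kb, was below Hoxa5 (63.7) and near Hoxb5 (4.27). Hoxc6, at 21.1, was below Hoxa6 (126) but above Hoxb6 (1.55). Hoxc4, at 10.5 per kb in wild type, had a Poisson interval that overlapped those of Hoxa4 (8.89), Hoxd4 (6.33) and Hoxb4 (5.13), and with 1 of its transcripts alone it was at 5.25. In the inversion it was at 11.2 (7.16 to 16.6), against 14.2 for Hoxa4 and 6.16 for Hoxb4, and below Hoxd4, whose interval was 21.1 to 34.1. Hoxc8, at 4.88, was near Hoxb8 (4.23) and below Hoxd8 (51.9). By their transcripts' own lengths, Hoxb8 was at 7.88 and Hoxd8 at 79.3 per kb.

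The ratios of paralogues were set side by side for the same libraries. The interval of Hoxc9 ended at 0.18, below those of its group. Hoxa9 was at 0.69 (0.54 to 0.84), Hoxb9 at 1.56 (1.03 to 2.17) and Hoxd9 at 0.70 (0.47 to 0.93). Hoxc9 therefore held 3.25% of the reads of group 9 in wild type (2.21 to 4.61) and 1.23% in the inversion (0.742 to 1.91). The intervals of these shares did not overlap, whereas those of the other 8 groups did, and the interval of Hoxc9's own ratio included 0. How often such shares lie apart in other gene families was not examined, so nothing is read from this group alone. In that group the total went from 922 to 1546 reads, mostly of the paralogues, while Hoxc9 itself went from 30 to 19.

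Other differences between paralogues were partial. Hoxc10, with an interval ending at 0.04, lay below Hoxa10 at 0.40 (0.29 to 0.51) but overlapped Hoxd10 at -0.10 (-0.25 to 0.04). Hoxc13, with an interval from -0.26, lay above Hoxd13 at -0.61 (-0.70 to -0.51) and overlapped Hoxa13 at 0.12 (0.00 to 0.24). Hoxc12 overlapped Hoxd12 at -0.86 (-0.98 to -0.74), and Hoxc11 overlapped both Hoxa11 at 0.61 and Hoxd11 at -0.35. Of Hoxc10 to Hoxc13, only Hoxc13 thus had an interval apart from that of its HoxD paralogue. Hoxc4, with an interval ending at 0.99, lay below Hoxd4 at 2.03 (1.29 to 2.98), a gene whose transcripts overlap those of Hoxd3, so that its reads are uncertain. With the reads of 1 Hoxc4 transcript alone the interval ends at 1.41 and overlaps that of Hoxd4. Hoxc5, Hoxc6 and Hoxc8 overlapped each paralogue that passed the filter.

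**Figure D4:**
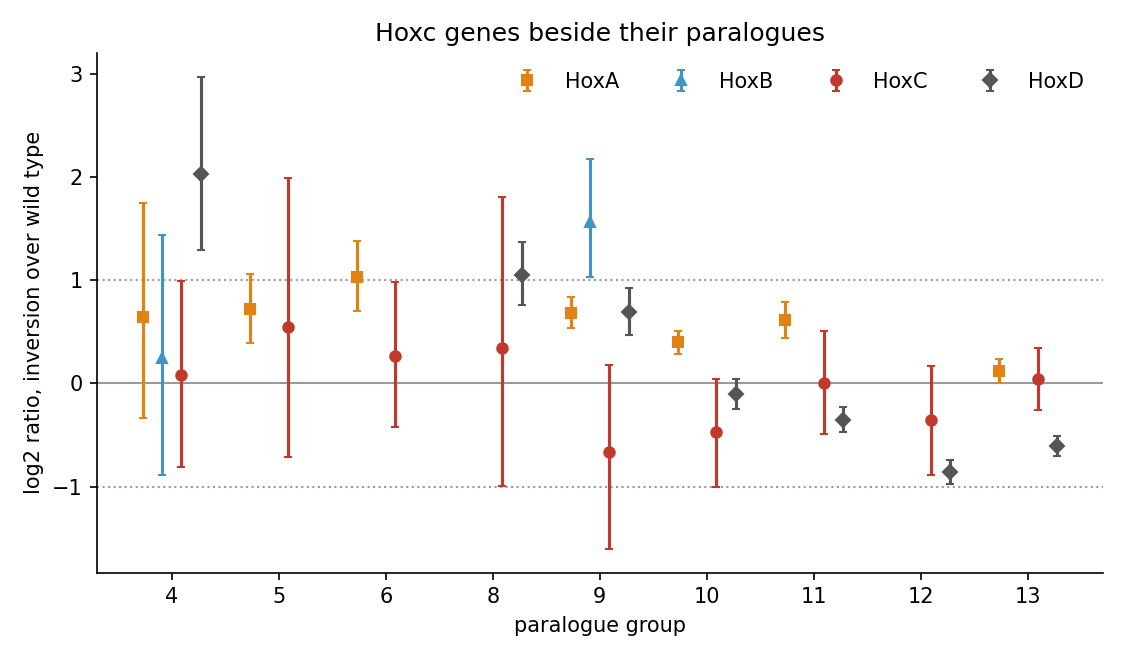
Log2 ratio of inversion over wild type for the Hox genes of paralogue groups 4, 5, 6 and 8 to 13 that passed the filter, by cluster, with exact 95% counting intervals. Dotted lines stand at 2-fold. Hoxc9, at -0.67, is the only Hoxc gene whose interval lies apart from those of all its paralogues, which sit between 0.69 and 1.56.

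Hox proteins bind DNA together with cofactors of the TALE class, the Meis, Pbx and Pknox proteins. All 9 listed cofactors passed the filter, with 3 higher and 6 lower in the inversion and a median log2 ratio of -0.09. Meis2 was at -0.34 (-0.53 to -0.15) and Pknox2 at 0.30 (0.11 to 0.48), and the other 7 intervals included 0. Over all genes passing the filter, 29.7% of the intervals excluded 0. The summed level of the cofactors was 5178 normalized reads in wild type, against 4911 with the inversion. The log2 ratio of this sum was -0.08 (-0.13 to -0.02). As sums, the cofactors were thus far more abundant in reads than the Hoxc genes. Single cofactors such as Meis3 (43 and 45 reads) and Pbx4 (37 and 58) lay within the range of the Hoxc genes.

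The labelled tissue was checked on genes that tell limbs apart, since several Hoxc genes are used in the hindlimb. Tbx5, the forelimb gene, had 1663 and 1959 reads. Pitx1, the hindlimb gene, had 44 and 29 reads, Tbx4 had 430 and 394, and Isl1 had 2 and 4. The hindlimb list of Pitx1, Tbx4 and Isl1 summed to 482 normalized reads in wild type, against 422 with the inversion. The interval of the log2 ratio of this sum, -0.38 to -0.0013, lay just below 0, while those of the 3 single genes included 0. Both forelimb and hindlimb genes thus had reads in each library. In the inversion library Pitx1 (log2 ratio -0.62) and Tbx4 (-0.16) were lower, and Isl1 (0.71) was higher. Of 5 proximal limb genes, 4 were lower in the inversion library and 1 was higher, Shox2 at 0.91 (0.73 to 1.09). Their median log2 ratio was -0.29, with 2 intervals below 0. Of 8 distal limb genes, Hoxa13 and Hoxd13 among them, 5 were lower and 3 higher, with a median of -0.07. There 3 intervals lay below 0 and 3 above. Beside this, 29.7% of the intervals of all genes passing the filter excluded 0. The part of hindlimb, proximal and distal genes in the Hoxc values was not tested.

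Markers of other tissues that use Hoxc genes were summed in the same way. All 9 surface ectoderm genes were lower in the inversion library, with a median log2 ratio of -0.23, 7 intervals below 0 and a sum of 6479 and 5559 normalized reads. Over all 16756 genes passing the filter, 8946 were lower and 2172 had an interval below 0. The ectoderm genes ranged from -0.35 for Epcam to -0.11 for Trp63, and the interval of Hoxc13, -0.26 to 0.34, included the median of that list. The 5 genes of the neural list that were found summed to 170.1 and 158 normalized reads. The neuronal genes Tubb3, with 108 and 109 reads, and Elavl4, with 53 and 40, made up most of this sum, and Olig2, Isl1 and Elavl3 had 2 to 4 reads in each library. Neuronal transcripts were thus present in both libraries. The 4 body wall genes summed to 738 and 814 normalized reads. Pax9, which made up most of that sum, had 614 and 727 reads, Gata4 had 86 and 90, Wt1 had 17 and 3, and Pax1 had 12 and 4. Cartilage genes summed to 12343 and 15177 normalized reads and myogenic genes to 396 and 596, with median log2 ratios of 0.37 and 0.60. In the cartilage list 4 genes were higher and Sox9 was lower (-0.09), with 4 intervals above 0. In the myogenic list 5 were higher and Pax3 was lower (-0.40), with 3 intervals above 0. Of all 16756 genes passing the filter, 7810 were higher and 2802 had an interval above 0. The part of these shifts in the Hoxc values was not tested. The pools also differed in embryo sex, with 2607 and 13 reads of Xist and 4 Y-linked genes at log2 ratios from 1.45 to 2.13, and sex cannot be told apart from genotype here.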

How the data were processed

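Poly(A)-selected RNA of E12.5 distal forelimbs was sequenced by the authors as stranded, single-end reads, mapped to NCBIM37 (Bowtie2 in the submitters' processing notes) and assigned to transcripts. In the 1 table that was deposited, the signal of each library is the number of reads per transcript, which the authors divided by a size factor. The methods name RPKM, but the values do not depend on length. The table's other columns hold the authors' fold changes and p-values and were not used. Values of 0.5 stand for no reads. All others (100%) could be turned back into whole reads, within 0.01 of a whole number. One read was worth 1.01 in wild type and 0.988 in the inversion. Use of the strand in the assignment is not given in the sources used here.

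Transcripts were summed to genes, and log2 ratios used a pseudocount of 1. The filter kept genes whose mean was 10 or more. A gene counts as called past 2-fold, as 1 library per group allows no test. Intervals cover counting error only. The exact binomial test compares the libraries. The authors' scaling was kept as planned for normalized values, with the test on recovered reads as an alternative. The genes named were all members and their transcripts, the other Hox genes, TALE cofactors, limb identity genes, RNAs within the cluster and its neighbours within 100 kb. Marker lists of the hindlimb, proximal and distal limb, surface ectoderm, neural tissue, body wall, cartilage, muscle and embryo sex were also used. Members and lists were chosen with earlier results of these data known. The comparison with genes in the same range of means and the nearest neighbours were added after the values were seen. Positions, lengths, transcript types and sequences are from GENCODE M21 (GRCm38), which held 88.1% of the transcripts. The recognition helix of 1 member is not reported here. The steps were tested on simulated data. Alternatives covered scaling, pseudocount, filter, threshold, transcript choice and length. The software was scipy 1.17.1, pandas 2.3.3 and numpy 2.4.6 under Python 3.11.15, with matplotlib 3.10.9 for figures.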

Additional observations from a re-analysis of the deposited data

How the results depend on the processing

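No paired analysis was possible because each genotype has a single library. The log2 ratio of the summed Hoxc reads lay between -0.10 and -0.07 under the alternatives run for it, and the median of the Hoxc genes between 0.02 and 0.05. Of 54 values of single Hoxc genes under an alternative, 54 stayed within their counting interval and 1 changed sign, that of Hoxc11 near 0. This count is a weak check. Genes with 1 transcript keep their value under the transcript choices, and scaling and pseudocount moved the ratios little beside these intervals. At 1.5-fold, 1 Hoxc gene was lower (Hoxc9) and 0 were higher. A mean of at least 100 leaves Hoxc13 alone. The HoxC share of Hox reads (4.66% in wild type, 4.35% with the inversion) was 5.16% and 4.78% per kilobase, 5.51% and 5.29% over protein-coding transcripts, and 5.69% and 5.63% with the transcript of highest mean. With each transcript divided by its own length, 3 genes took another rank in the inversion library, against 0 in wild type. Among all genes passing the filter, 668 were past 2-fold higher and 81 past 2-fold lower. These counts were 1577 and 341 at 1.5-fold, 113 and 13 at 4-fold, 139 and 12 at a minimum mean of 100, and 1992 and 1089 without the filter. The exact binomial test on recovered reads gave 1953 and 1160. Over protein-coding transcripts 412 were higher and 110 lower. The share of higher genes among those called was 89.2%, 78.9% over protein-coding transcripts and 64.7% without the filter. Filters and thresholds change these counts by their construction, and for the others the cause was not tested. Depth limits Hoxc5 and Hoxc8, each at 9 wild-type reads.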
